A study of Mus musculus with 28 samples.

Results

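*Meis1*, *Meis2*, *Meis3*, *Pbx2*, *Pbx3*, *Pbx4*, *Pknox1* and *Pknox2* encode homeodomain proteins that work as cofactors of Hox proteins, and their RNA was followed here in neural stem cells grown from brain and from peripheral tissues of the mouse. The 8 genes were taken by symbol from the 28244 genes of the count table, and all 8 passed the filter on low counts in each set of samples. The study addressed whether multipotent neural stem cells exist outside the central nervous system, and it grew peripheral neural stem cells (pNSCs) from lung, tail and dorsal root ganglion (DRG) beside brain neural stem cells (NSCs). PolyA-selected RNA of 28 samples in 11 groups was sequenced, and the groups form 3 sets.

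The first set held Brain-NSC, Lung-pNSC, Tail-pNSC, Lung and Tail, with 2 samples each. The labels give only the tissue or cell type for this set, and its groups and numbers match the study's account of Nes-GFP mice, in which GFP is driven by regulatory elements of the neural progenitor gene *Nestin*. There, sorted GFP+ cells of adult lung (mice of about 4 to 6 weeks) and of postnatal tail (about days 1 to 5) gave the pNSCs. The second set held Sox2-GFP brain NSCs and Sox2-GFP lung pNSCs, with 3 samples each, and was set against the same 2 Lung samples. Sox2-GFP is a knock-in reporter at the stem cell gene *Sox2*, and the lung pNSCs grew from GFP+ cells of postnatal lung. The third set held Wnt1Cre-mTmG brain NSCs, Wnt1Cre-mTmG Tail pNSCs, Wnt1Cre-mTmG DRG pNSCs and DRG NCSCs, with 3 samples each. In this cross Wnt1-Cre switches a Tomato reporter to GFP in neural crest cells and their progeny, it also marks midbrain cells, and the study describes its pNSCs, from postnatal tail and postnatal DRG, as Tomato+ and GFP-. DRG NCSCs are neural crest stem cells from adult wild-type DRG, although their cell type is given as NSC in the labels. Mouse line therefore differs together with cell type in every comparison with DRG NCSCs, and age does so in those with pNSCs. Neither can be told apart from cell type. The methods name adult and postnatal mice for brain NSCs and lung cells, without assigning an age to brain NSC groups or Lung. In most cases, the study says, control brain NSCs came from the same mice as the pNSCs. All labels name the strain C57BL/6, while the study's methods describe CD1 and mixed CD1/C3H mice as the wild-type background. Each pNSC line was started from a manually picked cluster after 3 weeks in NSC medium, so a group may stand for 1 clone. The labels only number the samples, the study calls those in its heat maps biological replicates, and neither says whether they were separate animals, lines or cultures, so p-values measure the spread between these samples.

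TALE homeodomain proteins carry a 3-residue loop extension between the first and second helix of the DNA-binding domain. Pbx proteins bind DNA together with Hox proteins and sharpen their choice of site, whereas Meis and Pknox (also called Prep) proteins pair with Pbx, bind DNA beside it and help to hold it in the nucleus. In embryos these genes are used along the body axis, in the limb, in the hindbrain and spinal cord and in the neural crest, and *Meis* genes are known to respond to retinoic acid.

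The coding sequence shows how close the members are to each other, and a stretch that encodes part of the third, DNA-reading helix is shown because the subfamilies differ there. The windows cover 30 bases of that helix, read 5′ to 3′ on the coding strand from GENCODE M21 transcripts (GRCm38), and capitals mark the bases that differ from *Meis1*.
Meis1: tggtttattaatgcccggagaagaatagtg
Meis2: tggtttatCaatgccAgAagaagaatagtg
Meis3: tggtttattaatgcccggagaCgaatagtg
Pknox2: tggttCatCaatgccAggagGCgCatCCtg
Pknox1: tggttCatCaaCgcGAgAagaCgaatTCtC
Pbx3: tggtttGGCaaCAAAcgAaTCagGTACAAg
Pbx2: tggttCGGtaaCAAGcgAaTTCgCTACAAg
Pbx4: tggtttGGCaaCAAAAgAaTCCgGTACAAA
*Meis2* and *Meis3* differed from *Meis1* at 3 and 1 of these bases, the *Pknox* genes at 8 and 10, and the *Pbx* genes at 16 to 19. In the 3 *Pbx* genes the window lies in one exon, and in the other 5 an intron divides it. Over the whole aligned homeobox of 189 bases, identity was 83.6% to 85.7% among the *Meis* genes, 79.4% to 82.5% among the *Pbx* genes, 76.7% between the *Pknox* genes, 65.1% to 70.9% between *Meis* and *Pknox* genes and 45% to 52.9% between *Pbx* genes and the others.

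On GRCm38, *Meis1* lies on chromosome 11 from 18879817 to 19018985 on the minus strand, *Meis2* on chromosome 2 from 115863064 to 116065839 on the minus strand and *Meis3* on chromosome 7 from 16175090 to 16186504 on the plus strand. *Pbx2* lies on chromosome 17 from 34591266 to 34597400 on the plus strand, *Pbx3* on chromosome 2 from 34171457 to 34373142 on the minus strand and *Pbx4* on chromosome 8 from 69832491 to 69872292 on the plus strand. *Pknox1* lies on chromosome 17 from 31564734 to 31607693 on the plus strand and *Pknox2* on chromosome 9 from 36890982 to 37147407 on the minus strand. *Pbx2* overlaps the protein-coding gene *Gpsm3* on the same strand, and *Meis1*, *Pbx3*, *Pknox1* and *Pknox2* each overlap at least 1 antisense gene. Whether reads were counted by strand is not given in the sources used here, so reads of the antisense partners cannot be told apart. Strand would not separate *Gpsm3* from *Pbx2*, and how reads in such overlaps were counted is not given either.

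Totals ran from 9808246 to 22637031 counts per sample, with the Wnt1Cre-mTmG brain NSCs and DRG pNSCs the shallowest (9808246 to 11431445). All brain NSC and pNSC groups had the 6 NSC markers *Sox2*, *Sox1*, *Nes*, *Olig2*, *Pax6* and *Fabp7* at a mean of at least 1 CPM (counts per gene scaled to the size of the library), and the DRG NCSCs had 4 of 6. Neural crest and Schwann markers summed to 4291 to 4395 CPM in the DRG NCSCs, against 6.57 to 18.7 CPM in the Wnt1Cre-mTmG pNSCs. Lung and Tail were mixed tissues, with lung epithelial markers at 27831 to 28437 CPM in Lung and mesenchymal markers at 72237 to 73688 CPM in Tail. The mean squared difference between samples of a group was 1.09 to 2.82 times that set by counting error alone. DRG NCSCs replicate 3 was the exception, at 16.8 and 21 times against replicates 1 and 2. In such bulk samples, fewer cells of a type and less RNA per cell cannot be told apart.

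All 8 genes were read in all 28 samples, but they varied to very different degrees. Levels are CPM scaled by TMM over all samples, and the comparisons use edgeR's quasi-likelihood test within a set, in which a gene was called when its Benjamini-Hochberg adjusted p was under 0.05 and its change was at least 2-fold. The highest group mean exceeded the lowest by 37.8 times for *Pbx4*, 26.7 times for *Meis2* and 20.4 times for *Meis1*. For *Pknox2* and *Pbx3* the ratio was 6.98 and 4.58. *Meis3*, *Pbx2* and *Pknox1* were the steadiest, with ratios of 2.86, 2.77 and 1.94. On the log2(CPM + 1) scale the span of *Pknox1* was wider than that of only 20.6% of all genes that passed the filter, and that of *Meis2* wider than that of 85.2%.

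**Figure D1:**
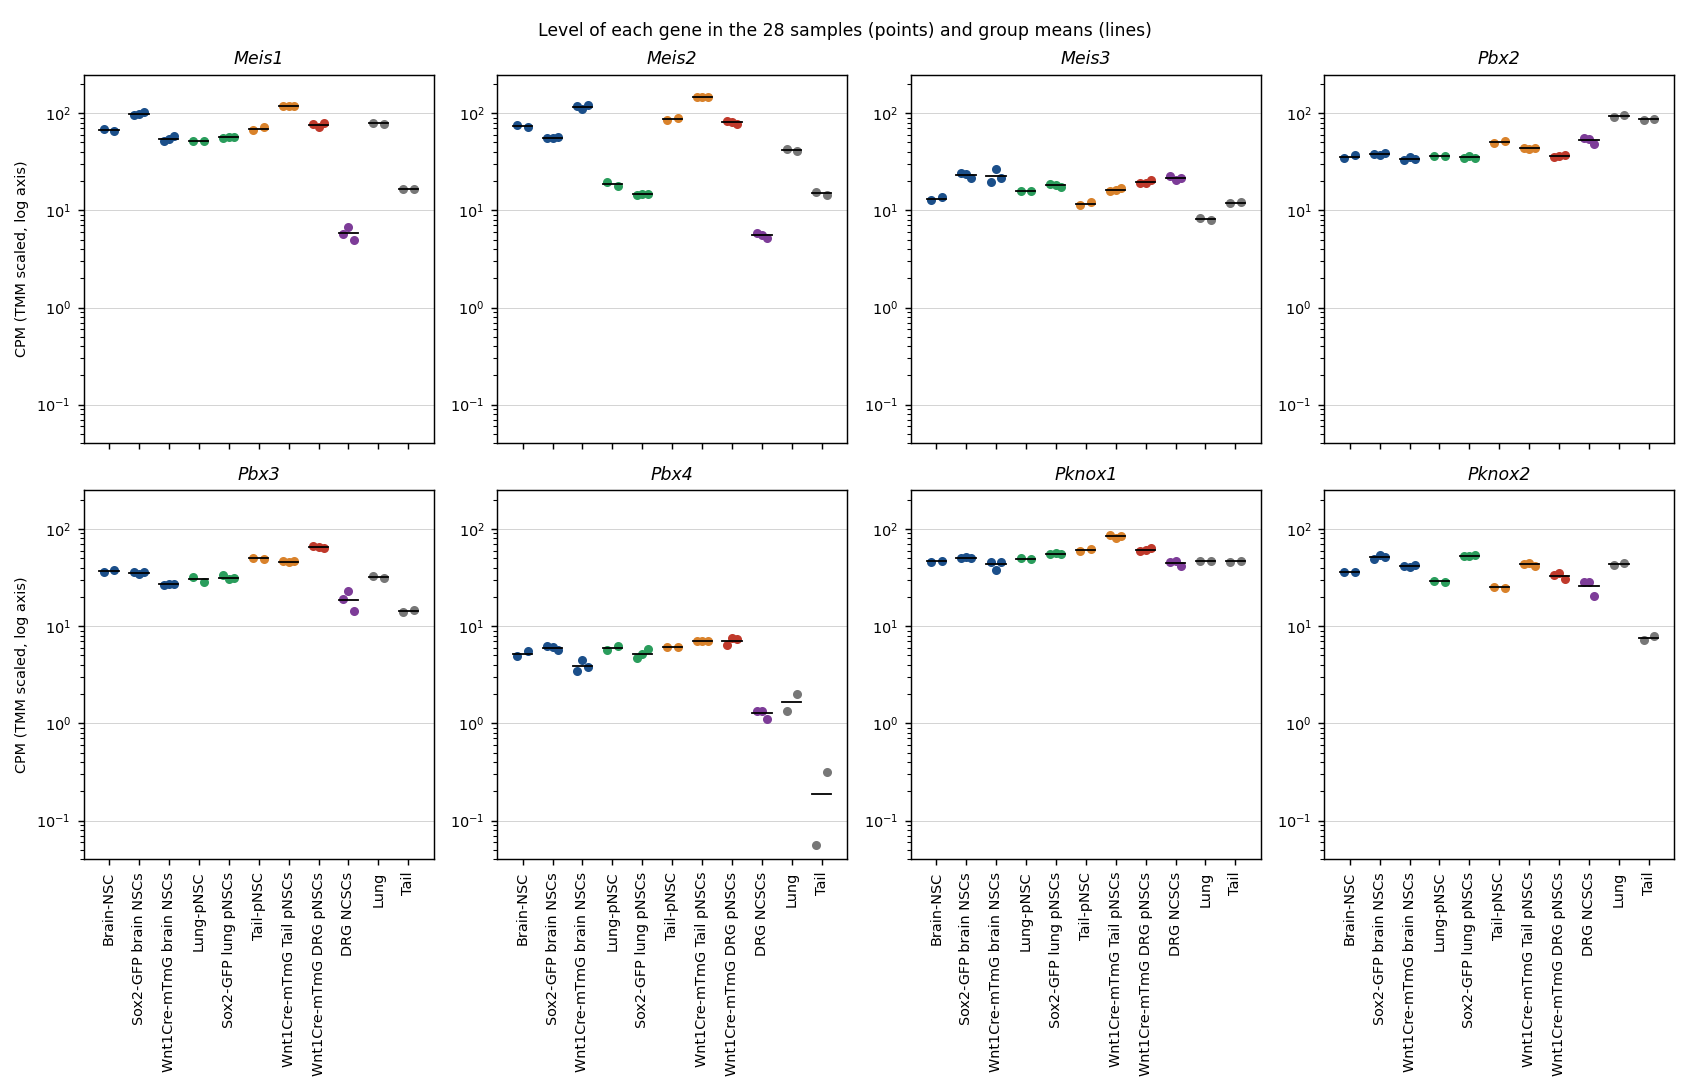
CPM of each gene on a log axis in every sample (points) of the 11 groups, with the group mean as a line. *Meis2* is low in both lung pNSC groups (14.5 to 19.4 CPM), *Meis1* and *Meis2* are lowest in DRG NCSCs, *Pbx4* is lowest in Tail, and *Pknox1* is nearly level.

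Between the pNSCs and the brain NSCs of their own set, few members changed by 2-fold. Over the 5 such comparisons and 8 genes, 4 of 40 differences were called and another 23 had an adjusted p under 0.05 below the 2-fold limit. In Tail-pNSC against Brain-NSC, 0 of 8 members were called, where 10.9% of all genes tested were (4.31% higher and 6.59% lower). There 5 of the 8 had an adjusted p under 0.05 and 5 an unadjusted p under 0.05, and DESeq2 also called 0. The count was 1 of 8 in Lung-pNSC against Brain-NSC (*Meis2*, lower), where 8.71% of all genes were called (4.56% higher, 4.15% lower), and 1 of 8 in Sox2-GFP lung pNSCs against Sox2-GFP brain NSCs (again *Meis2*, lower), where 15.7% were (5.76% higher, 9.99% lower). It was also 1 of 8 in Wnt1Cre-mTmG Tail pNSCs against their brain NSCs (*Meis1*, higher), where 18.2% of all genes were called (9.16% higher, 9.05% lower), and 1 of 8 in Wnt1Cre-mTmG DRG pNSCs (*Pbx3*, higher), where 9.53% were (3.12% higher, 6.41% lower). With 8 genes, 1 call is 12.5%, so these shares lay near that of all genes. The median log2 change of the members lay between -0.16 and 0.56 in these comparisons, and that of all genes tested between 0 and 0.01.

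**Figure D2:**
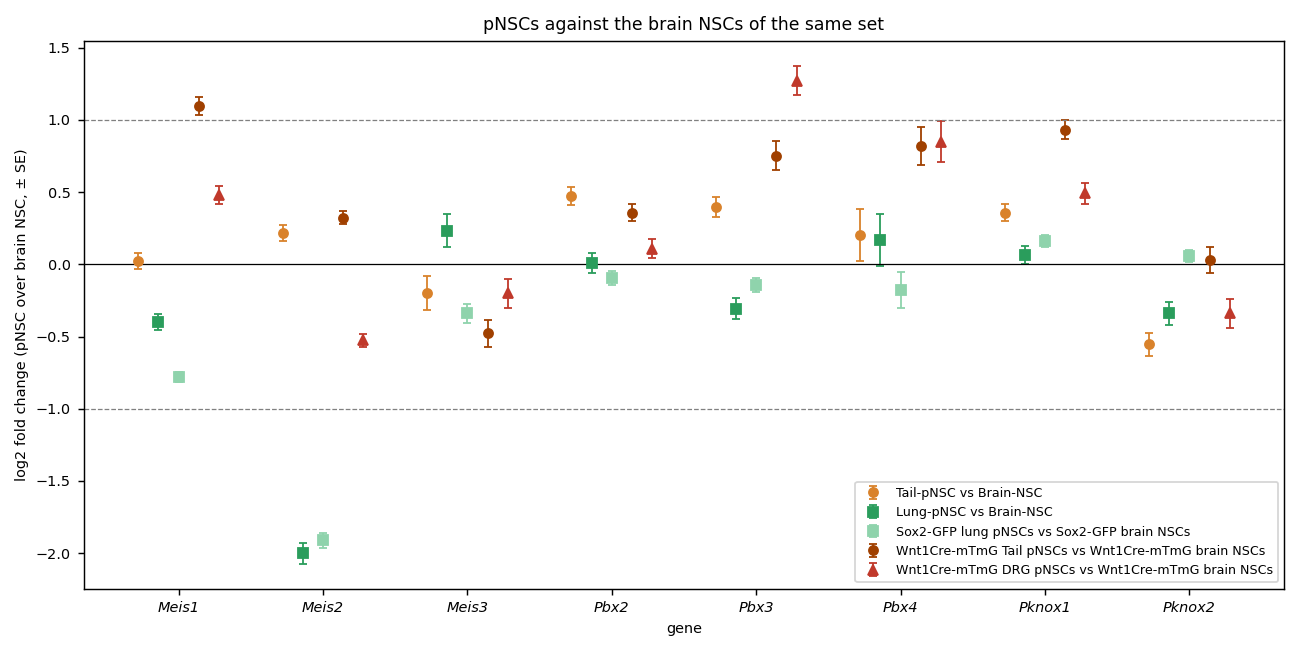
Log2 fold change of each gene in pNSCs over the brain NSCs of the same set, with the standard error from edgeR as bars and the 2-fold limit as dashed lines. *Meis2* in both lung comparisons lies near -2, and *Meis1* in Wnt1Cre-mTmG Tail pNSCs (1.10) and *Pbx3* in Wnt1Cre-mTmG DRG pNSCs (1.27) lie above the upper line.

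The *Hox* genes, whose proteins these cofactors serve, were counted over a list of 39, of which 36 could be tested in the first set, 35 in the Wnt1Cre-mTmG set and 14 in the Sox2-GFP set. Of 39 *Hox* genes, 19 were called higher and 0 lower in Tail-pNSC against Brain-NSC, and 33 higher and 0 lower in Wnt1Cre-mTmG Tail pNSCs. The DRG pNSCs had 31 called higher and 0 lower. In lung pNSCs the counts were 6 higher and 0 lower in the first set, and 5 higher and 3 lower in the Sox2-GFP set, where fewer were tested. Whether these shares differ between comparisons was not tested. Many *Hox* genes passed the filter only through the group where they were high, so the counts are given over the whole list. Of the 39, 31 had no read in Brain-NSC and 26 had none in Wnt1Cre-mTmG brain NSCs. Few could therefore be called lower, and the counts of 0 lower were largely set in advance. The shares of all genes called are those given above for each comparison. The summed *Hox* level was 3.83 to 4.47 CPM in Wnt1Cre-mTmG brain NSCs, 465 to 482 CPM in the Tail pNSCs and 620 to 628 CPM in the DRG pNSCs of that set. It was 36.7 to 39.8 CPM in Brain-NSC, 193 to 194 CPM in Tail-pNSC and 80.4 to 82.3 CPM in Lung-pNSC, and 23.7 to 24.9 CPM and 83.7 to 85.0 CPM in the Sox2-GFP brain NSCs and lung pNSCs.

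**Figure D3:**
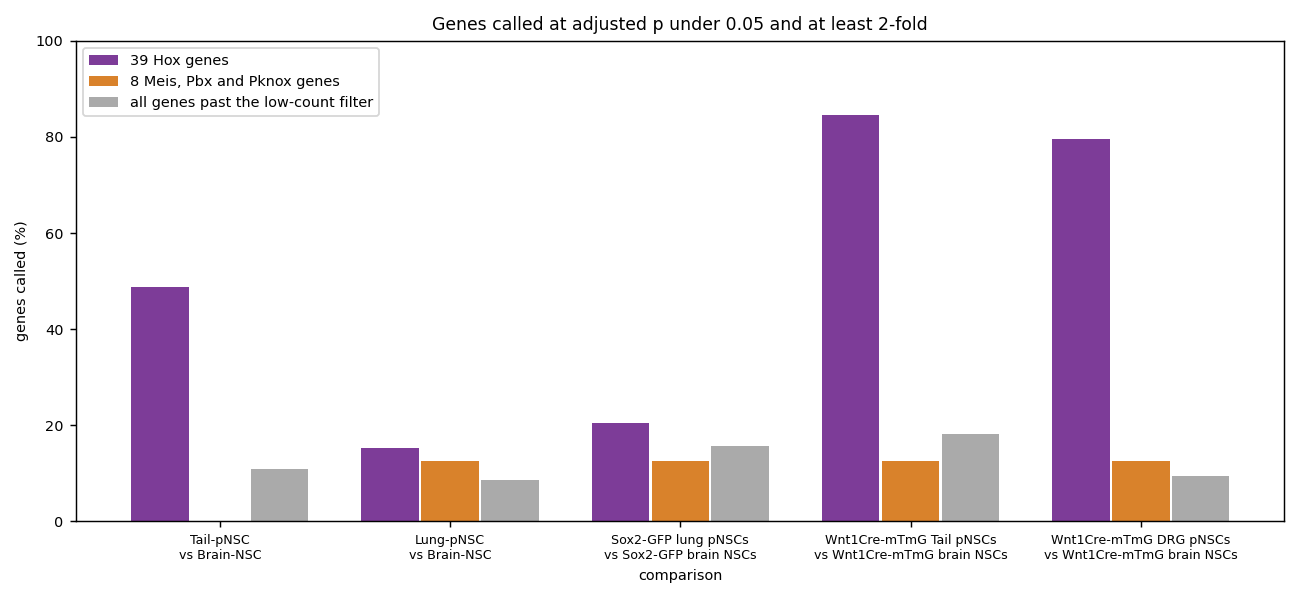
Percentage of genes called in 5 comparisons of pNSCs with brain NSCs, for the 39 *Hox* genes, for the 8 *Meis*, *Pbx* and *Pknox* genes and for all genes past the low-count filter. The *Hox* bar reaches 84.6% in Wnt1Cre-mTmG Tail pNSCs and 15.4% in Lung-pNSC, only 14 of the 39 were tested in the Sox2-GFP set, and the bar of the 8 genes is 0 or 12.5% in each.

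*Meis2*, known for its roles in cranial neural crest and in the neuroblasts that the adult brain makes, gave the largest change of any member between pNSCs and brain NSCs, and it did so in lung. Its level was 19.4 and 17.8 CPM in Lung-pNSC, against 75.1 and 72.1 CPM in Brain-NSC. In the Sox2-GFP set it was 14.5, 14.7 and 14.6 CPM in lung pNSCs, against 55.6, 55.8 and 56.3 CPM in brain NSCs. The groups were far apart in both sets. In lung pNSCs *Meis2* fell by 2.00 on the log2 scale in Lung-pNSC (SE 0.0702, adjusted p = 9.74e-176) and by 1.91 in Sox2-GFP lung pNSCs (SE 0.0543, adjusted p = 3.88e-268), that is 4.01-fold and 3.76-fold. The difference between these effects was 0.08 (SE 0.0846, adjusted p = 0.478) in one fit of all 28 samples. Mesenchymal markers were at 7.23 to 9.66 CPM in Lung-pNSC and 7.93 to 9.98 CPM in Brain-NSC, but at 95 to 102 CPM in Sox2-GFP brain NSCs against 21.4 to 24.5 CPM in their lung pNSCs. Neuron markers were lower in both lung comparisons, at 35.1 to 37.7 CPM in Lung-pNSC against 47.7 to 50.1 CPM in Brain-NSC (2 of 6 called lower) and at 23.6 to 25.9 CPM in Sox2-GFP lung pNSCs against 81.3 to 86.2 CPM (3 of 6 called lower). Neural crest and Schwann markers were at 10.5 to 11.1 CPM against 69.0 to 73.4 CPM in the Sox2-GFP set and at 9.36 to 9.43 CPM against 9.83 to 9.96 CPM in the first set. The part of these markers in the *Meis2* result was not tested. The lung comparisons share no sample, but mouse line, age of the lung and set differ together and cannot be told apart.

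The tail and DRG pNSCs did not share the low *Meis2* level. Tail-pNSC stood at 85.8 and 88.8 CPM, so that *Meis2* was higher than in Lung-pNSC by 2.22 on the log2 scale (SE 0.0695, adjusted p = 2.15e-221). This was the only member called between these pNSC groups, where 12.9% of all genes were called (5% higher, 7.86% lower). By the study's account the tail was postnatal and the lung adult, so age and tissue differ together here and cannot be told apart. Against Brain-NSC, *Meis2* in Tail-pNSC was higher by 0.22 (SE 0.0559, adjusted p = 0.000255), below the 2-fold limit. In the Wnt1Cre-mTmG set, Tail pNSCs had 148, 147 and 148 CPM, the highest level of any group, with brain NSCs at 119, 109 and 121 CPM (log2 change 0.32, SE 0.0447, adjusted p = 5.90e-06). The DRG pNSCs had 84.0, 80.7 and 77.9 CPM and lay below these brain NSCs (log2 change -0.53, SE 0.0481, adjusted p = 9.29e-08). *Meis2* thus lay on either side of brain NSCs in the pNSCs of this set, and the Tail pNSCs exceeded the DRG pNSCs by 0.85 (SE 0.0462, adjusted p = 3.16e-11).

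*Meis2* also differed among the brain NSCs of the 3 sets. Its mean level was 117 CPM in Wnt1Cre-mTmG, 73.6 CPM in the first set and 55.9 CPM in Sox2-GFP brain NSCs. The samples of Tail and Sox2-GFP lung pNSCs, neighbours in the order of the 11 groups, overlapped. Lung tissue held 42.3 and 40.5 CPM, Tail 15.6 and 14.5 CPM, and DRG NCSCs 5.88, 5.53 and 5.17 CPM, the lowest of all.

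*Meis1*, a partner of posterior Hox proteins that is also known from blood stem cells and leukaemia, was called in 1 of the 5 comparisons with brain NSCs, that of Wnt1Cre-mTmG Tail pNSCs. These had 117, 119 and 119 CPM, against 51.9, 53.8 and 58.6 CPM in the brain NSCs of the set. The difference was 1.10 on the log2 scale (SE 0.0597, adjusted p = 3.37e-11), a 2.14-fold rise. In Tail-pNSC of the first set *Meis1* was 67.4 and 71.5 CPM, overlapping with 68.7 and 65.5 CPM in Brain-NSC (log2 change 0.02, SE 0.0556, adjusted p = 0.795). The effect in tail pNSCs differed between the 2 sets by 1.07 on the log2 scale (SE 0.0756, adjusted p = 7.48e-15). *Meis1* was the only member called in that test of the difference, in which 16% of all genes were called (8.96% higher, 7.05% lower). The sum of mesenchymal markers moved with it: they summed to 418 to 428 CPM in Wnt1Cre-mTmG Tail pNSCs, with 6 of 6 at 1 CPM or more, against 33.1 to 33.9 CPM in their brain NSCs and 10.4 to 11.4 CPM in Tail-pNSC. Of these markers, 5 of 6 were called higher against brain NSCs, but only 1 of 6 in the test between sets. Neuron markers moved with *Meis1* too, at 96.4 to 99.7 CPM in Wnt1Cre-mTmG Tail pNSCs against 47.1 to 50.8 CPM in their brain NSCs and 42.6 to 45.4 CPM in Tail-pNSC, with 4 of 6 called higher against brain NSCs and 4 of 6 in the test between sets. The part of either list in the *Meis1* result was not tested.

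In lung pNSCs *Meis1* was lower than in brain NSCs but stayed within the 2-fold limit. Lung-pNSC had 52.2 and 51.3 CPM (log2 change -0.40, SE 0.0576, adjusted p = 4.43e-11). Sox2-GFP lung pNSCs had 55.5, 57.0 and 56.7 CPM against 95.9, 97.6 and 102 CPM (log2 change -0.78, SE 0.0343, adjusted p = 2.95e-112). The lung effect differed between the sets by -0.39 (SE 0.0744, adjusted p = 3.30e-05), and 0 of 8 members were called in that test, where 14.1% of all genes were (5.89% higher, 8.24% lower). By edgeR 3 of the 8 had an adjusted p under 0.05 there and 3 an unadjusted p under 0.05, and DESeq2 called 0. The mean *Meis1* level was 51.8 and 56.4 CPM in the lung pNSC groups and 67.1 and 98.6 CPM in their brain NSCs. In DRG pNSCs *Meis1* was 77.9, 72.6 and 78.7 CPM, above brain NSCs by 0.48 (SE 0.0636, adjusted p = 8.21e-06).

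Because *Meis1* and *Meis2* are paralogs, their balance was set out per length, dividing CPM by the kilobases of exon that GENCODE M21 gives each gene. The *Meis2* to *Meis1* ratio on this scale was 0.304 to 0.325 in Lung-pNSC and 0.225 to 0.228 in Sox2-GFP lung pNSCs. Brain NSCs ranged from 0.482 to 0.507 in the Sox2-GFP set over 0.956 to 0.962 in the first set to 1.77 to 2.01 in the Wnt1Cre-mTmG set. Tail pNSCs had nearly equal levels of the paralogs in both sets, with ratios of 1.08 to 1.11 in Tail-pNSC and 1.08 to 1.10 in Wnt1Cre-mTmG Tail pNSCs. The DRG pNSCs ranged from 0.866 to 0.973. The lung pNSCs therefore had the lowest ratio of the 11 groups, below Lung tissue at 0.458 to 0.465.

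**Figure D4:**
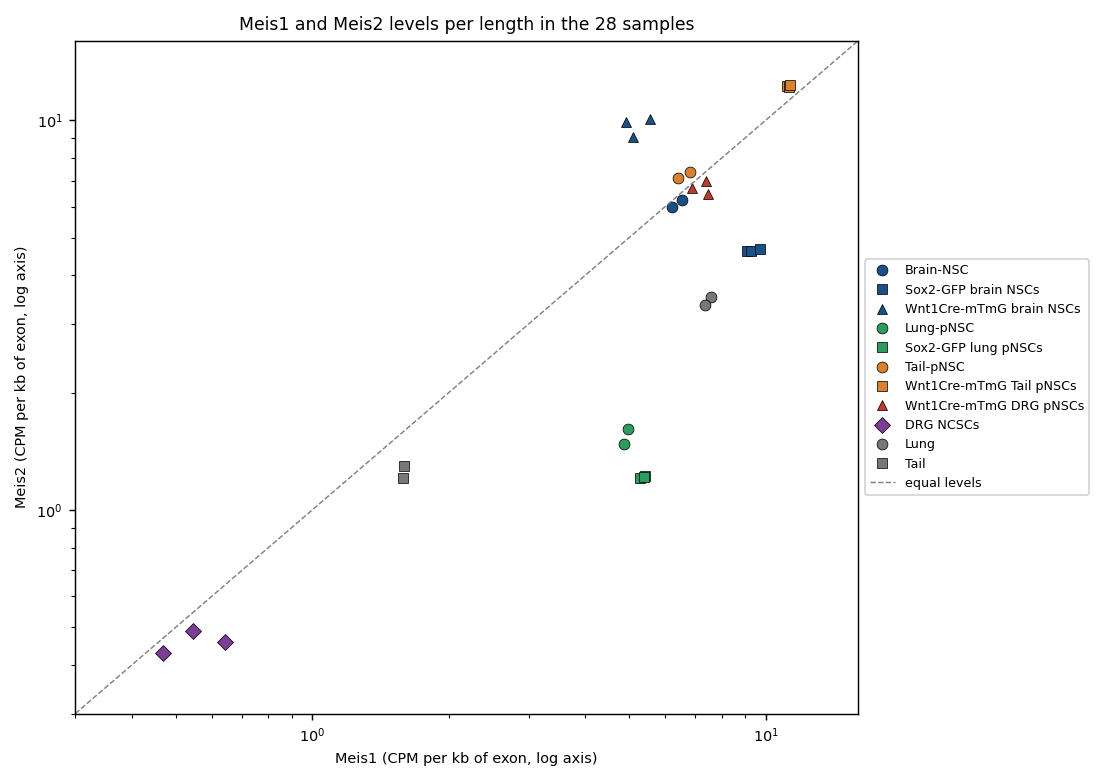
Level of *Meis2* against *Meis1* per kilobase of exon in the 28 samples, both on log axes, with equal levels as a dashed line. The 5 lung pNSC samples lie far below the line, the tail pNSCs lie on it or just above, the Wnt1Cre-mTmG brain NSCs lie above it, and the DRG NCSCs are low on both axes.

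*Meis3*, the member linked to hindbrain patterning, was low in CPM and steady. Per kilobase of exon, its rank among the 8 members ran from 2 in DRG NCSCs to 7 in Lung. The group means of *Meis3* ran from 8.14 CPM in Lung to 23.3 CPM in Sox2-GFP brain NSCs. It was not called in any comparison of pNSCs with brain NSCs, with log2 changes from -0.48 to 0.23. The lowest of these was in Wnt1Cre-mTmG Tail pNSCs, with 15.9, 16.1 and 17.1 CPM against 19.4, 26.8 and 21.7 CPM in brain NSCs (log2 change -0.48, SE 0.0937, adjusted p = 0.000243).

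Among the *Pbx* genes, *Pbx3*, which is expressed in spinal cord and sensory circuits, was the one past the 2-fold limit in DRG pNSCs. Its level there was 66.1, 65.7 and 64.5 CPM, the highest of the 11 groups, against 26.7, 27.5 and 27.1 CPM in the brain NSCs of the set. The rise was 1.27 on the log2 scale (SE 0.103, adjusted p = 2.06e-08), or 2.42-fold. The Tail pNSCs of the set, at 46.4, 45.7 and 46.4 CPM, were higher than brain NSCs by 0.75 (SE 0.101, adjusted p = 4.36e-06) and lower than DRG pNSCs (log2 change -0.52, SE 0.0910, adjusted p = 7.93e-05), both under the limit. Tail-pNSC, at 50.9 and 48.8 CPM, was above Brain-NSC at 36.1 and 38.2 CPM by 0.40 (SE 0.0701, adjusted p = 8.04e-08). Lung pNSCs lay below their brain NSCs, with a log2 change of -0.31 in Lung-pNSC (SE 0.0748, adjusted p = 0.000190) and -0.14 in Sox2-GFP lung pNSCs (SE 0.0508, adjusted p = 0.00883). Between Wnt1Cre-mTmG Tail pNSCs and DRG pNSCs 0 of 8 members were called by edgeR and by DESeq2, where 18% of all genes were called (10.4% higher, 7.61% lower) and, of the *Hox* list, 10 were higher and 14 lower. The adjusted p was under 0.05 for 7 of the 8 members there, as was the unadjusted p for 7, and *Meis2* was the most different of them.

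*Pbx4*, which is best known from testis, had the lowest CPM of the members in every group. It also has the shortest exon length, and per kilobase of exon *Meis2* was lower in both lung pNSC groups. *Pbx4* stayed below the 2-fold limit in all 5 comparisons of pNSCs with brain NSCs. It held 3.48 to 7.55 CPM in every brain NSC and pNSC sample, with counts of 39 to 159 reads. In the Wnt1Cre-mTmG set it was higher in Tail pNSCs (7.04, 6.98 and 7 CPM) and DRG pNSCs (6.34, 7.55 and 7.37 CPM) than in brain NSCs (3.48, 4.53 and 3.79 CPM). These differences were 0.82 (SE 0.130, adjusted p = 2.81e-05) and 0.85 (SE 0.142, adjusted p = 0.000101), below the limit. In the other sets its log2 change was 0.20, 0.17 and -0.18 in Tail-pNSC, Lung-pNSC and Sox2-GFP lung pNSCs, and none had an adjusted p under 0.05.

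*Pbx2*, a broadly expressed member, was level across neural stem cells, with group means of 33.8 to 50.4 CPM. It was above brain NSCs by 0.47 in Tail-pNSC (SE 0.0635, adjusted p = 6.07e-13) and by 0.36 in Wnt1Cre-mTmG Tail pNSCs (SE 0.0597, adjusted p = 4.95e-05). In lung and DRG pNSCs it lay within 0.11 of brain NSCs on the log2 scale and the test did not separate them. Its samples were 34.5 and 36.8 CPM in Brain-NSC and 36.7 and 36.4 CPM in Lung-pNSC, which overlap.

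*Pknox1*, which the early embryo needs for survival, and *Pknox2*, its more tissue-restricted paralog, were not called in any comparison of pNSCs with brain NSCs. *Pknox1* came closest in Wnt1Cre-mTmG Tail pNSCs, at 86.1, 80.7 and 84.9 CPM against 46.2, 37.6 and 46.3 CPM, a difference of 0.93 (SE 0.0676, adjusted p = 1.64e-09). Its adjusted p was under 0.05 in 4 of the 5 comparisons, and each of these was higher in pNSCs. *Pknox2* was lower in 3 of the 5, most in Tail-pNSC, at 25.3 and 24.9 CPM against 36.1 and 36.1 CPM (log2 change -0.55, SE 0.0798, adjusted p = 2.57e-11). In the Sox2-GFP set its samples overlapped, at 52.8, 52.5 and 53.6 CPM in lung pNSCs and 49.1, 53.6 and 51.9 CPM in brain NSCs.

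*Meis1* and *Meis2* were lowest in DRG NCSCs. *Meis1* was 5.74, 6.77 and 4.94 CPM there and *Meis2* 5.88, 5.53 and 5.17 CPM, with 84 to 142 reads per sample. Against the DRG pNSCs of the same set, *Meis1* was higher in pNSCs by 3.71 on the log2 scale (SE 0.0804, adjusted p = 2.06e-17) and *Meis2* by 3.87 (SE 0.0661, adjusted p = 7.71e-19), that is 13.1-fold and 14.6-fold. *Pbx3* was higher by 1.79 (SE 0.100, adjusted p = 1.58e-11) and *Pbx4* by 2.46 (SE 0.156, adjusted p = 9.97e-11). These 4 of 8 were called, where 38.3% of all genes were called (15.1% higher, 23.3% lower). The same genes, called against the same NCSC samples, were higher in Wnt1Cre-mTmG Tail pNSCs by 4.32 for *Meis1*, 4.72 for *Meis2*, 1.27 for *Pbx3* and 2.44 for *Pbx4*, where 37.9% of all genes were called (15.3% higher, 22.6% lower).

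The remaining members stayed within the 2-fold limit in that comparison. *Pbx2*, at 55.1, 54.4 and 48.0 CPM, was above the DRG pNSCs (35.8, 36.1 and 37.3 CPM), whose difference to NCSCs was -0.53 (SE 0.0588, adjusted p = 2.28e-07). *Meis3* was 22.5, 20.6 and 21.6 CPM in NCSCs against 19.1, 19.2 and 20.6 CPM in DRG pNSCs (log2 change -0.13, SE 0.0940, adjusted p = 0.201). *Pknox1* was 46.3, 46.5 and 41.7 CPM in NCSCs, below DRG pNSCs, which were higher by 0.45 (SE 0.0682, adjusted p = 1.00e-05). *Pknox2* was 28.7, 28.5 and 20.3 CPM in NCSCs against 33.3, 35.1 and 30.6 CPM in DRG pNSCs, which were higher by 0.35 (SE 0.0990, adjusted p = 0.00381). It was also lower in NCSCs than in Wnt1Cre-mTmG brain NSCs (log2 change -0.69, SE 0.0956, adjusted p = 3.77e-06). Compared with Wnt1Cre-mTmG brain NSCs, the NCSCs had log2 changes of -3.23 for *Meis1* (SE 0.0831, adjusted p = 2.26e-16), -4.40 for *Meis2* (SE 0.0640, adjusted p = 9.48e-20) and -1.61 for *Pbx4* (SE 0.176, adjusted p = 1.82e-07). These 3 of 8 were called lower, where 36.9% of all genes were called (22.1% higher, 14.8% lower). Of the *Hox* list, 28 of 39 were called higher and 1 lower in the NCSCs in that comparison, and their summed *Hox* level was 140 to 145 CPM.

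DRG NCSCs replicate 3 was low in *Pbx3* (14.2 CPM against 19.1 and 23) and in *Pknox2* (20.3 CPM against 28.7 and 28.5). Without it, all 4 members above were still called against the DRG pNSCs, with *Meis1* at 3.62, *Meis2* at 3.83, *Pbx3* at 1.64 and *Pbx4* at 2.39 on the log2 scale. Against brain NSCs *Meis1*, *Meis2* and *Pbx4* stood at -3.14, -4.36 and -1.54. Mesenchymal markers in NCSCs summed to 2822 to 3478 CPM and neuronal markers to 318 to 355 CPM, against 29.0 to 32.6 CPM and 57.9 to 61.0 CPM in DRG pNSCs, and their part in the result was not tested.

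*Pbx2* had the highest CPM of the members in the tissues of origin, and also in DRG NCSCs. Per kilobase of exon it led in most stem cell groups too, as given below. *Pbx2* was 92.4 and 94.7 CPM in Lung and 85.1 and 87.4 CPM in Tail, above every neural stem cell sample. The part of the overlapping gene *Gpsm3* in the counts of *Pbx2* was not tested. Against Lung the log2 change of *Pbx2* was -1.43 in Lung-pNSC (SE 0.0587, adjusted p = 4.53e-129) and -1.45 in Sox2-GFP lung pNSCs (SE 0.0446, adjusted p = 6.77e-231). In the same order the log2 change of *Meis2* was -1.22 (SE 0.0777, adjusted p = 6.62e-55) and -1.55 (SE 0.0647, adjusted p = 2.80e-125), and that of *Pbx4* was 1.78 (SE 0.236, adjusted p = 7.99e-14) and 1.62 (SE 0.199, adjusted p = 6.48e-16). *Meis3* was higher by 0.89 (SE 0.126, adjusted p = 3.08e-12) in Lung-pNSC and by 1.11 (SE 0.0968, adjusted p = 3.08e-30) in Sox2-GFP lung pNSCs, so that it passed the limit only in the latter. The counts were 3 of 8 and 4 of 8, where 55% (20.2% higher, 34.9% lower) and 56.3% (21.3% higher, 34.9% lower) of all genes were called. Both comparisons use the same 2 Lung samples and are not independent.

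Tail-pNSC exceeded Tail in 5 of 8 members, where 46.7% of all genes were called (14.1% higher, 32.6% lower). *Meis2* was higher by 2.43 (SE 0.0749, adjusted p = 3.20e-228), *Meis1* by 1.95 (SE 0.0732, adjusted p = 4.87e-155), *Pbx3* by 1.70 (SE 0.0861, adjusted p = 4.49e-86) and *Pknox2* by 1.63 (SE 0.111, adjusted p = 9.79e-48). *Meis1* was 16.7 and 16.7 CPM in Tail, *Pbx3* 13.9 and 14.6 CPM and *Pknox2* 7.20 and 7.97 CPM, each far below Tail-pNSC. *Pbx4* had 1 and 5 reads in the Tail samples, against 105 and 121 in Tail-pNSC, a difference of 4.95 (SE 0.390, adjusted p = 2.02e-36). That value rests on 6 reads and was 4.14 without Tail replicate 1 and 6.52 without Tail replicate 2. *Pbx2* was lower in Tail-pNSC than in Tail, under the 2-fold limit (log2 change -0.88, SE 0.0572, adjusted p = 3.05e-52). Of the *Hox* list, 27 of 39 were called lower in Tail-pNSC than in Tail and 5 higher, and Tail itself held 638 to 651 CPM of *Hox* RNA.

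Between the tissues, the same 5 genes (*Meis1*, *Meis2*, *Pbx3*, *Pbx4* and *Pknox2*) were lower in Tail than in Lung, where 43.4% of all genes were called (20.5% higher, 22.9% lower). The log2 change was -2.49 for *Pknox2* (SE 0.102, adjusted p = 8.32e-131), -2.20 for *Meis1* (SE 0.0722, adjusted p = 1.40e-201), -1.43 for *Meis2* (SE 0.0838, adjusted p = 4.33e-64) and -1.14 for *Pbx3* (SE 0.0925, adjusted p = 1.63e-34). *Pbx4*, at 1.33 and 2.01 CPM in Lung, had a log2 change of -3.13 in Tail (SE 0.531, adjusted p = 6.93e-09), and this value was -2.31 without Tail replicate 1 and -4.70 without Tail replicate 2. The tissues hold different cell types, as their epithelial and mesenchymal markers show, and the part of this in the result was not tested.

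Per kilobase of exon, *Pbx2* was the most abundant member in 8 of the 11 groups and took 45.8% of the summed level of the 8 genes in Lung and 58.9% in Tail, and 41.4% in DRG NCSCs. In brain NSCs and pNSCs its share was 17.8% to 25.9%. *Meis2* came first in Wnt1Cre-mTmG Tail pNSCs (18.1%) and Wnt1Cre-mTmG brain NSCs (20.3%), and *Pbx3* in Wnt1Cre-mTmG DRG pNSCs (19.1%). The share of *Meis2* was 3.95% in Lung-pNSC and 2.84% in Sox2-GFP lung pNSCs, against 13.6% in Brain-NSC and 8.81% in Sox2-GFP brain NSCs. *Meis1* and *Meis2* together made up little of the sum in DRG NCSCs, at 1.58% and 1.32%. These shares assume that the whole annotated exon length of each gene was transcribed.

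**Figure D5:**
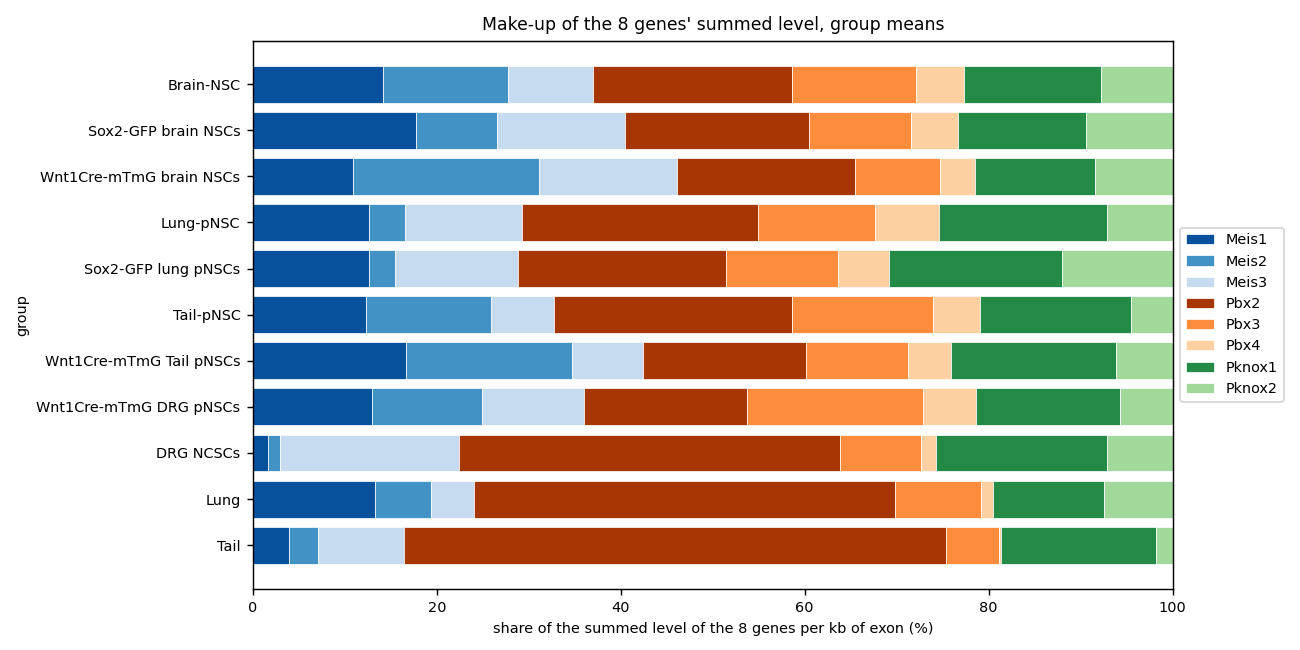
Share of each gene in the summed level of the 8 genes per kilobase of exon, as group means in the 11 groups. The *Meis2* block is narrowest among brain NSC and pNSC bars in the lung pNSCs, the *Pbx3* block is widest in the DRG pNSCs (19.1%), and *Pbx2* fills 41.4% to 58.9% of the bars of DRG NCSCs, Lung and Tail.

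Other genes around the family were followed as lists. *Pbxip1*, which encodes a protein that binds Pbx and keeps it from DNA, was lower in pNSCs than in brain NSCs in all 5 comparisons with a log2 change of -0.55 to -0.93, none of them called. It was called lower in DRG NCSCs than in Wnt1Cre-mTmG brain NSCs (log2 change -2.13, SE 0.0391, adjusted p = 2.06e-18). Of the 9 other TALE genes (*Irx*, *Mkx* and *Tgif* genes), 1 was called higher and 0 lower in both Tail-pNSC and Lung-pNSC against Brain-NSC. That gene was *Irx1*, at 2.74 (SE 0.167, adjusted p = 4.77e-59) and 3.72 (SE 0.143, adjusted p = 1.10e-145). In the Sox2-GFP lung pNSCs 0 were called, whereas Wnt1Cre-mTmG Tail pNSCs had 3 higher with 2 lower, and the DRG pNSCs had 4 higher with 0 lower. Of all genes tested, 10.9% were called in Tail-pNSC and 8.71% in Lung-pNSC, so 1 of 9 lay near that share. The share was 15.7% in Sox2-GFP lung pNSCs, 18.2% in Wnt1Cre-mTmG Tail pNSCs and 9.53% in the DRG pNSCs.

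Of 13 retinoic acid genes, which make, break down, bind or sense retinoic acid, 4 were called higher and 1 lower in Lung-pNSC against Brain-NSC, and 2 higher and 3 lower in Sox2-GFP lung pNSCs. *Dhrs3* was among the called genes of largest change in both sets. *Cyp26b1*, which degrades retinoic acid, was higher by 7.34 (SE 0.209, adjusted p = 2.83e-265) in Lung-pNSC. Its effect differed between the lung sets by -7.60 (SE 0.250, adjusted p = 3.15e-24), and in that test the absolute difference was larger still for *Dhrs3*. In Tail-pNSC 1 was higher and 3 lower, while Wnt1Cre-mTmG Tail pNSCs had 4 higher with 0 lower and the DRG pNSCs of that set 0 higher with 2 lower. Of all genes tested, 8.71% were called in Lung-pNSC, 15.7% in Sox2-GFP lung pNSCs and 10.9% in Tail-pNSC. The share was 18.2% in Wnt1Cre-mTmG Tail pNSCs and 9.53% in the DRG pNSCs.

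For the 5 members whose group means spanned at least 2 on the log2(CPM + 1) scale, the genes of most similar pattern were sought over the 11 group means among 7694 genes that passed the filter and spanned at least as much. *Meis1* was closest to *Nova2* (Pearson r of 0.954), *Cfap100* (0.941) and *Mtss1* (0.930), and *Meis2* to *Cx3cl1* (0.923), *Intu* (0.899) and *Zfp811* (0.894). *Pbx3* was closest to *Spon1* (0.899), *Pbx4* (0.854) and *Mpp2* (0.843). *Pbx4* ranked beside *Ptpro* (0.973), *Ralgps1* (0.971) and *Kbtbd11* (0.970), and *Pknox2* beside *Mgat3* (0.975), *Zfp128* (0.898) and *Amph* (0.893). The pattern of *Pbx4* was common, with 145 genes at r of 0.9 or more, while *Meis2* and *Pknox2* had 1 such gene each and *Pbx3* had 0. These values describe 11 points that share cell type and set, and say nothing of shared control.

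Within the family, *Pbx3* and *Pbx4* were the most alike over the 11 group means (r = 0.854), followed by *Meis1* and *Meis2* (0.802) and *Meis1* and *Pbx3* (0.781). *Pbx2* ran against *Pbx4* (-0.795) and *Meis3* (-0.719).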

How the data were processed

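RNA-seq values of 28 mouse samples in 11 groups were used. Reads were single-end (NextSeq500, polyA selection, NEBNext Ultra), and the authors aligned them to GRCm38 with HISAT2, ran Cufflinks and obtained gene counts through htseq-count. The deposited values are raw counts per gene, and annotation release, counting mode and strand setting are not given in the sources used here. The study then applied quantile normalization and a log2 transform for its own displays, which the deposited counts precede (they are whole numbers with unequal totals). All value columns were matched to samples by title.

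Counts were analysed with edgeR 4.0.16 in R 4.3.3 (filterByExpr with a minimum count of 10 and a minimum total of 15, TMM, glmQLFit and glmQLFTest, group as the only term, two-sided, Benjamini-Hochberg over all genes tested). The groups of each of the 3 sets were fitted together, 14 comparisons in all, and the differences between sets came from one fit of all 28 samples. The standard error is the absolute log2 change divided by the root of F. Fold changes use TMM factors of each set and can differ slightly from ratios of the printed CPM, which use factors over all samples. Changes were called at an adjusted p under 0.05 and at least 2-fold. Scripts were tested on simulated data with known changes. DESeq2 1.42.0, other scalings, filters, designs and left-out samples served as alternatives. Exon lengths, positions and sequences came from GENCODE M21. The 8 members, the lists and the rule for naming other genes (the called genes of largest change in a list, and the 3 genes of most similar pattern) were chosen with earlier results of these data known. *Cyp26b1*, *Dhrs3*, *Irx1* and *Pbxip1* fall under that rule. Counting error is the only error that depth sets: 3 counts, taken as the detection floor, were 0.131 to 0.294 CPM.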

Additional observations from a re-analysis of the deposited data

Results flagged for a closer look

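The *Meis1* difference between tail pNSCs and brain NSCs was not the same in the Wnt1Cre-mTmG set and the first set, by the test of the difference itself: the log2 change against brain NSCs was 1.10 in Wnt1Cre-mTmG Tail pNSCs and 0.02 in Tail-pNSC, and the difference was 1.07 (SE 0.0756, edgeR adjusted p = 7.48e-15, higher in 3 of 3 and 1 of 2 samples than every brain NSC sample of the set). It was the only such difference of at least 2-fold among the 8 genes. Below that limit, *Pknox1*, *Pknox2*, *Pbx3* and *Pbx4* in tail and *Meis1*, *Meis3* and *Pknox2* in lung also had an adjusted p under 0.05, with differences of 0.35 to 0.61 in tail and of -0.58, -0.39 and 0.39 for *Meis3*, *Meis1* and *Pknox2* in lung. Mouse line, set and number of samples differ together here and cannot be told apart. Depth differed too: Wnt1Cre-mTmG brain NSCs and DRG pNSCs had 9808246 to 11431445 counts, Wnt1Cre-mTmG Tail pNSCs and DRG NCSCs 17051461 to 22548268. The part of depth was not tested.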

How the results depend on the processing

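The 8 genes gave 128 log2 changes (8 genes, 14 comparisons and 2 differences between sets), each recomputed under 14 to 19 alternatives. The number of members called moved by more than 1.5 times in one case: with a mean count of at least 100 it fell from 4 to 2 in Sox2-GFP lung pNSCs against Lung, since *Pbx4* was not tested and *Meis3* stood at 0.94. Leaving out each sample in turn left every count at its value: 0 to 0 for Tail-pNSC and 1 to 1 for Lung-pNSC against Brain-NSC, and 4 to 4 for both Wnt1Cre-mTmG pNSC groups against DRG NCSCs. Where that left a group with 1 sample, it was assumed to vary like the others.

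Changes of sign were limited to values near 0, none of them called. With DESeq2, median-of-ratios size factors and the mean count of 100, *Pknox1* went to -0.0682, -0.0679 and -0.13 in Lung-pNSC against Lung and to -0.0220, -0.0224 and -0.0263 in Tail against Lung. *Pbx4* in Tail-pNSC against Lung-pNSC became -0.00350 with only the groups compared, and *Pknox2* in Sox2-GFP lung pNSCs against brain NSCs became -9.55e-05 with upper-quartile scaling. With left-out samples *Meis1* ran from -0.0283 to 0.0713 in Tail-pNSC and *Pbx2* from -0.0337 to 0.0526 in Lung-pNSC against Brain-NSC, *Pbx4* from -0.0358 to 0.103 in Tail-pNSC against Lung-pNSC and *Pknox1* from -0.00150 to 0.0643 in Lung-pNSC against Lung. In DRG NCSCs against brain NSCs *Meis3* ran from -0.172 to 0.0592 and *Pknox1* from -0.0515 to 0.0892, and *Pbx4* from -0.108 to 0.0202 between the Wnt1Cre-mTmG pNSC groups. The cause was not tested. No scaling moved the median of all genes by more than 0.0867.

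Same-numbered samples did not deviate together: over 45 pairs of same-numbered samples the correlation of their deviations ran from -0.01 to 0.05. Between groups of 2 samples the deviations mirror each other, so those pairs repeat the same value. The check gave no sign of pairing by number. It cannot exclude that same-numbered samples share a mouse or a preparation. A replicate block changed no count of members called, for example 1 in Lung-pNSC against Brain-NSC and 4 in DRG pNSCs against DRG NCSCs. With 2 or 3 samples a group, small differences in *Pbx4*, at 39 to 159 reads in the stem cell samples, were limited by depth.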
